A study of Mus musculus with 7 samples.

Results

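The genes described here are 31 targets of hypoxia-inducible factor 1 (HIF-1) that lie outside glycolysis, measured in nucleus pulposus, the soft gel-like centre of each intervertebral disc. They were chosen by symbol in the array's platform annotation, and all 31 were found among 19505 named genes, each read from its feature with the highest mean over 7 arrays. The 3 MCT4KO animals, aged 14 months, carried a global deletion of MCT4, the plasma membrane lactate exporter encoded by Slc16a3. The 4 wild-type (WT) animals were aged 13 months, so age and genotype cannot be told apart. Per the labels, knockouts and wild types were littermates of heterozygous crosses after 10 generations of backcrossing to C57Bl/6N. The ages of 14 and 13 months do not go with MCT4KO and WT animals of the same litters, so litter is not taken as matched. The strain field reads C57BL/6 for both genotypes, and the series' design text names C57Bl/6N for MCT4KO and C57Bl/6 for WT. The deletion was not driven in a chosen cell type, and the discs of 1 mouse gave 1 RNA sample and 1 array.

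HIF-1 is a transcription factor made of an oxygen-labile alpha subunit and the stable partner ARNT. When oxygen is scarce, prolyl hydroxylases no longer mark the alpha subunit for destruction by VHL, and HIF-1 binds short hypoxia response elements with the core ACGTG or GCGTG. The disc has almost no blood vessels, and nucleus pulposus cells keep HIF-1 active and live by glycolysis, which makes lactate. Beyond glycolysis, HIF-1 drives secreted factors, mitophagy, glycogen storage, lipid droplets, oxidative protein folding, brakes on growth, and oxygenases that act on chromatin.

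Slc16a3 checked the genotype labels. It read 5.02, 4.98 and 4.47 in MCT4KO 1 to 3, against 13.55, 13.35, 13.61 and 13.40 in WT 1 to 4, on the deposited log2 scale. Every MCT4KO value lay below the median of the negative control features of its array, so the loss was at least 179.9-fold (limma adjusted p = 6.7e-09). Array medians over all genes ran from 6.46 to 6.51. Of 9 measured nucleus pulposus and notochord markers, 0 were at background in either group, among them Krt8, Krt19, Cd24a and Acan. Their mean was 13.75 to 13.95 in MCT4KO animals and 13.54 to 13.92 in WT animals. Brachyury (T) was not analysed here.

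No member passed the test between genotypes. In limma, 0 of 31 members had an adjusted p under 0.05, against 0.59% of all genes, and the smallest adjusted p was 0.14. That share rests on 115 called genes, a count of 15 to 64 when any single animal was left out. Differences above 0 (higher in MCT4KO) were found in 23 of 31 members and differences below 0 in 8, against 53% of all genes above 0. Without WT 1 and WT 2, 15 of 31 were above 0. The median log2 difference over the members was 0.27, against 0.02 over all genes. At an unadjusted p under 0.05 there were 6 members higher and 0 lower, against 5.76% and 6.9% of all genes. Only Higd1a and Ero1a had every MCT4KO value above every WT value, against 5.66% of all genes, and 0 members had every MCT4KO value below, against 6.37%. Because RNA came from whole tissue, fewer cells of a type and less RNA per cell cannot be told apart in any of these values.

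**Figure D1:**
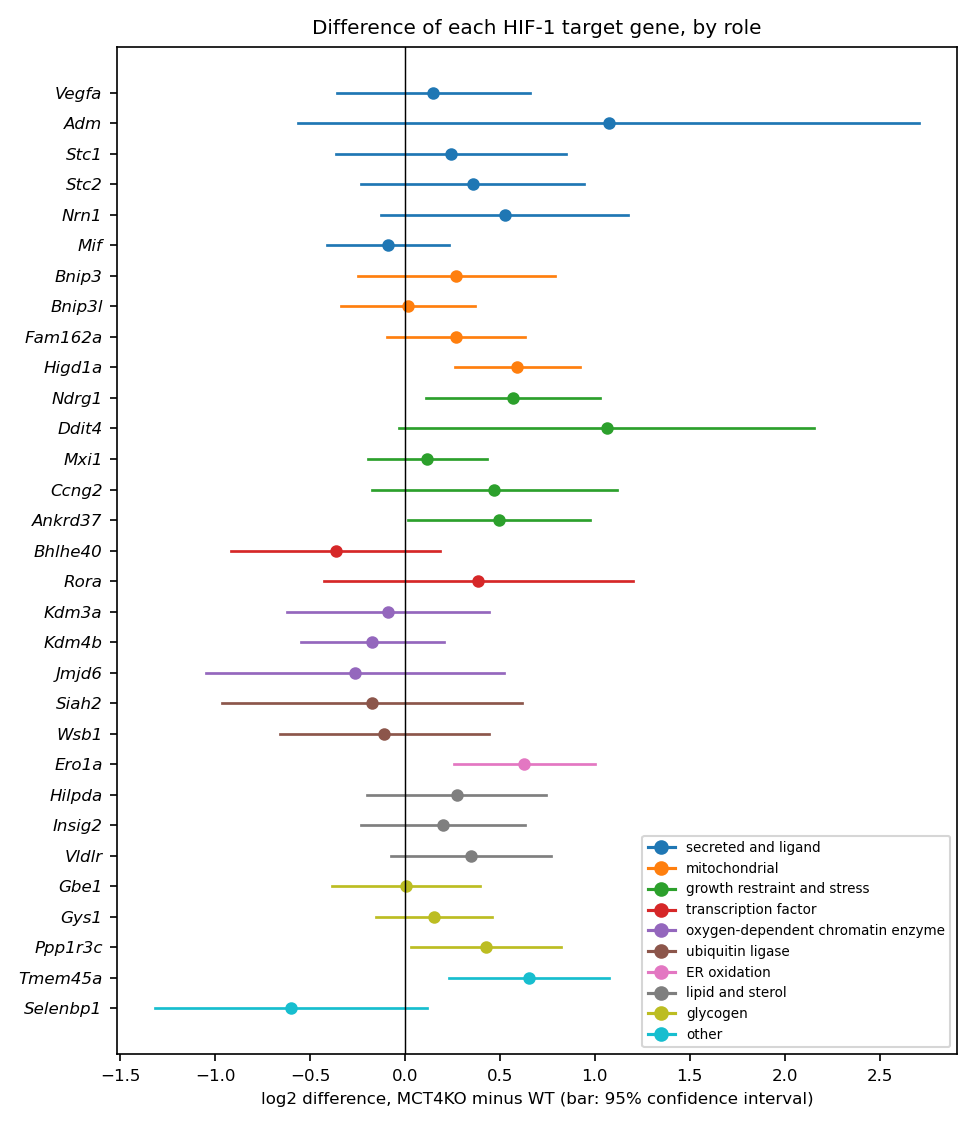
Log2 difference, MCT4KO minus WT, of each of the 31 genes (point) with its 95% confidence interval from limma (bar), coloured by role. The intervals of 6 genes exclude 0, all on the positive side, before any adjustment for multiple tests, and those of Adm and Ddit4 are the widest.

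The promoters of 4 members are shown because these members had the smallest unadjusted p among those with a promoter in the RefSeq table used here, which held 24 of the 31 members. Each line gives the 250 bases before the gene's start (RefSeq, build GRCm38.p6), 5′ to 3′ on the gene's strand. All 4 genes lie on the minus strand, Higd1a at chr9:121857797-121858046, Ero1a at chr14:45318573-45318822, Tmem45a at chr16:56886164-56886413 and Ppp1r3c at chr19:36736605-36736854. Capitals mark the hypoxia response element cores ACGTG and GCGTG, searched on both strands, so that on the opposite strand they read CACGT and CACGC.
Higd1a: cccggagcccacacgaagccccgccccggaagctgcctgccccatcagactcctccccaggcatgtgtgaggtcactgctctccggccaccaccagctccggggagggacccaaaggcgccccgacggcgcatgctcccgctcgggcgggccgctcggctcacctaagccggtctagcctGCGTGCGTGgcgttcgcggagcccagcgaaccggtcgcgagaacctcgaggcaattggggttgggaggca
Ero1a: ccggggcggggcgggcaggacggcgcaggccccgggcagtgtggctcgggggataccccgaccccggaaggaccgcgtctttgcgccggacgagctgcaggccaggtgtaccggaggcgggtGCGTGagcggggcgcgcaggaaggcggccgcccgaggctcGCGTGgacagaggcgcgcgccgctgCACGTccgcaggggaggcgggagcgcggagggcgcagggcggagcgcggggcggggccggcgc
Tmem45a: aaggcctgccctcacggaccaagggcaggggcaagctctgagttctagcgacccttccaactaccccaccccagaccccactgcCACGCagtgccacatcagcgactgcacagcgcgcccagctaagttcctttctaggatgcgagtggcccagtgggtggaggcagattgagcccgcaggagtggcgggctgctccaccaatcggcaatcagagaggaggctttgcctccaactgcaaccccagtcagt
Ppp1r3c: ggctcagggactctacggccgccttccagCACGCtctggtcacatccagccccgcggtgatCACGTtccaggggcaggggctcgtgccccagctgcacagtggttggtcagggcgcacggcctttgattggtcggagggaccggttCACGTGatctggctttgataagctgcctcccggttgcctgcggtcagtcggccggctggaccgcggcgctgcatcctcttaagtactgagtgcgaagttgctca
Higd1a holds 2 matches to GCGTG that overlap by 1 base, Ero1a 3 matches, Tmem45a 1 and Ppp1r3c 4. In Ppp1r3c, 2 of the matches are the same stretch, CACGTG, which reads as ACGTG on each strand and is also the E-box bound by other basic helix-loop-helix factors. At least 1 match was found in 22 of the 34 promoters listed for members (64.7%) and in 38.6% of all 32851 promoters of this length in the table. Member promoters also held more CpG, the dinucleotide inside both cores, with a median of 17 against 6 over all promoters. A match describes the letters only, and binding was not measured.

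All 4 mitochondrial members had differences above 0, and Higd1a had the largest of them; without WT 1 and WT 2 the signs of Bnip3 and Bnip3l turned. Higd1a encodes a small inner-membrane protein that associates with respiratory chain complexes and aids survival in low oxygen. It read 15.07, 15.07 and 15.31 in MCT4KO 1 to 3, against 14.31, 14.57, 14.76 and 14.59 in WT 1 to 4. Every MCT4KO animal lay above every WT animal, and the values within each group lay close together. The log2 difference was 0.59 ± 0.147 (SE), or 1.51-fold, with an unadjusted p of 0.00263 and a limma adjusted p of 0.14. Bnip3 and Bnip3l encode related outer-membrane receptors that deliver mitochondria to autophagosomes. Bnip3 read 15.75, 15.97 and 16.54 in MCT4KO animals and 15.49, 15.60, 16.20 and 15.99 in WT animals, so the groups overlapped. Its difference was 0.27 ± 0.231 (SE; limma adjusted p = 0.66), and that of Bnip3l was 0.02 ± 0.158 (limma adjusted p = 0.97), with a 95% confidence interval from -0.34 to 0.37. Fam162a, a mitochondrial protein linked to hypoxic cell death, differed by 0.27 ± 0.162 (limma adjusted p = 0.51).

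Ero1a stood beside Higd1a. It encodes the oxidase that passes disulfide bonds to protein disulfide isomerase in the endoplasmic reticulum, a step needed to fold secreted proteins. Its values were 12.78, 12.70 and 13.01 in MCT4KO 1 to 3 and 12.09, 11.91, 12.30 and 12.49 in WT 1 to 4. The lowest MCT4KO animal lay above the highest WT animal. The difference was 0.63 ± 0.166 (SE), or 1.55-fold, with an unadjusted p of 0.00385 and a limma adjusted p of 0.16. Tmem45a, a membrane protein of the secretory pathway induced by hypoxia, read 10.79, 11.07 and 11.41 in MCT4KO animals and 10.36, 10.33, 10.26 and 10.80 in WT animals. The groups touched, since MCT4KO 1 and WT 4 read almost the same, and the other MCT4KO animals lay above every WT animal. Its difference was 0.65 ± 0.188 (SE; unadjusted p = 0.00634, limma adjusted p = 0.20).

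All 5 members grouped under growth restraint and stress had differences above 0, with a median of 0.49, against 53% of all genes above 0. In limma, 2 of them had an unadjusted p under 0.05, against 5.76% of all genes higher at that threshold. Ankrd37, which is 1 of these 2, was placed in the group without a known growth or stress function being given here. Without WT 1 and WT 2 that of Ccng2 was -0.031. Ndrg1, an N-myc downstream-regulated protein of differentiation and stress, read 16.73, 17.02 and 17.57 in MCT4KO 1 to 3. In WT 1 to 4 it read 16.26, 16.56, 16.73 and 16.59. MCT4KO 1 read level with WT 3, and MCT4KO 2 and 3 lay above all WT animals. The difference was 0.57 ± 0.206 (SE; unadjusted p = 0.020, limma adjusted p = 0.30), and 0.34 without MCT4KO 3 (unadjusted p = 0.095 in limma). Ankrd37, an ankyrin-repeat protein strongly induced by HIF-1 in cultured cells, read 9.15, 8.35 and 8.78 in MCT4KO animals and 8.12, 7.96, 8.42 and 8.56 in WT animals. MCT4KO 2 fell inside the WT range, and the difference was 0.49 ± 0.214 (SE; unadjusted p = 0.044, limma adjusted p = 0.38), or 0.30 without MCT4KO 1.

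Ddit4 (REDD1), which switches off the growth kinase mTORC1 under stress, had a larger difference with a wider spread. It read 13.38, 12.48 and 14.02 in MCT4KO 1 to 3 and 12.25, 10.95, 12.60 and 13.11 in WT 1 to 4. The groups overlapped over a broad stretch, from MCT4KO 2 up to WT 4. The difference was 1.06 ± 0.489 (SE), or 2.09-fold, with a limma adjusted p of 0.41, and 0.64 without WT 2. Ccng2, a cyclin that halts the cell cycle, differed by 0.47 ± 0.289 (limma adjusted p = 0.52). Mxi1, a MAX partner that opposes MYC, differed by 0.12 ± 0.140 (limma adjusted p = 0.76).

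**Figure D2:**
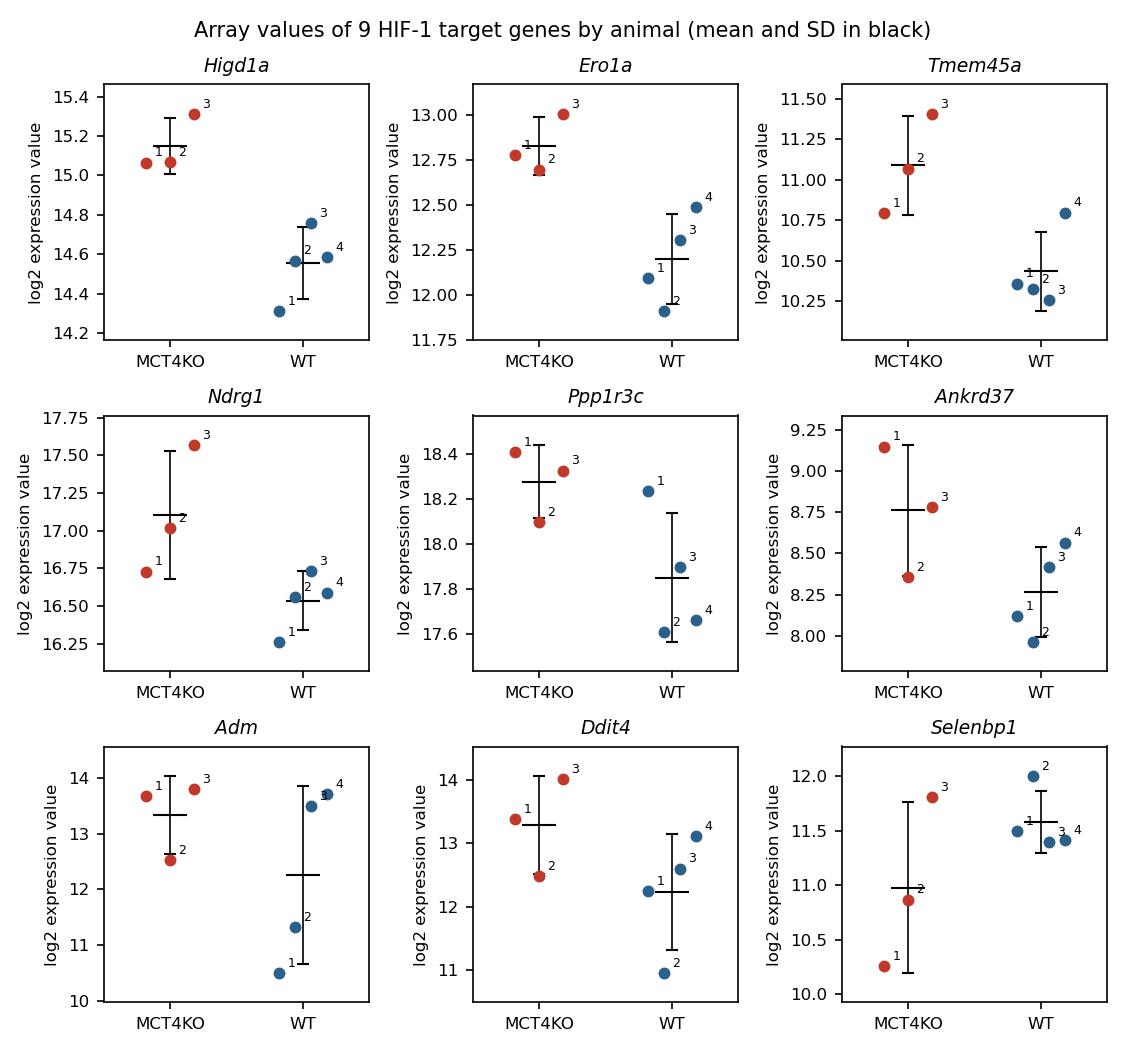
Log2 expression value of 9 of the genes in each animal (points, numbered by animal, MCT4KO left and WT right), with the group mean and SD in black. Higd1a and Ero1a separate the groups, the other 7 overlap, and Adm spreads over 3.22 log2 units among the 4 WT animals. The 9 are the 6 with the smallest p, and Adm, Ddit4 and Selenbp1, picked after their values were seen.

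Among 6 secreted members, 5 differences were above 0 and 0 had an unadjusted p under 0.05. Adm encodes adrenomedullin, a vasodilator peptide hormone, and had the largest difference of all members. It read 13.67, 12.52 and 13.80 in MCT4KO 1 to 3 and 10.50, 11.33, 13.50 and 13.72 in WT 1 to 4. WT 3 and WT 4 read as high as the MCT4KO animals, and only WT 1 and WT 2 were low. The difference of 1.07 therefore had an SE of 0.730, a 95% confidence interval from -0.56 to 2.71 and a limma adjusted p of 0.57. Vegfa, the main angiogenic growth factor, read 15.10, 14.85 and 15.12 in MCT4KO animals and 14.75, 14.36, 14.98 and 15.42 in WT animals. All 3 MCT4KO values lay inside the WT range, and the difference was 0.15 ± 0.227 (SE; limma adjusted p = 0.82).

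Nrn1, or neuritin, a GPI-anchored protein that promotes neurite growth, had the smallest p of this role. It read 14.95, 15.27 and 15.37 in MCT4KO 1 to 3 and 15.03, 14.17, 15.33 and 14.15 in WT 1 to 4. WT 1 and WT 3 sat with the MCT4KO animals, and WT 2 and WT 4 lay below all of them. The difference was 0.53 ± 0.290 (SE; limma adjusted p = 0.48). The stanniocalcins, glycoprotein hormones of calcium and phosphate balance, split by level. Stc1 read 4.91, 4.78 and 4.41 in MCT4KO animals and 4.39, 3.91, 4.35 and 5.19 in WT animals, below the negative control median of every array, so its difference has no interpretable size. Stc2 was measured above background and differed by 0.36 ± 0.263 (limma adjusted p = 0.60), and by 0.028 without MCT4KO 1, its highest animal. Mif, a cytokine with tautomerase activity, differed by -0.09 ± 0.143 (limma adjusted p = 0.83). Mif has processed pseudogenes in the mouse genome, so its reading may include near-identical copies.

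The 3 glycogen members had differences above 0, of which that of Gbe1 was 0.01. Ppp1r3c targets protein phosphatase 1 to glycogen, which activates glycogen synthase. It read 18.41, 18.10 and 18.33 in MCT4KO 1 to 3 and 18.24, 17.61, 17.90 and 17.66 in WT 1 to 4. WT 1 sat among the MCT4KO animals and the other WT animals lay below all of them. The difference was 0.43 ± 0.176 (SE; unadjusted p = 0.037, limma adjusted p = 0.36). Gys1, muscle-type glycogen synthase, differed by 0.15 ± 0.136 (limma adjusted p = 0.67). Gbe1, the glycogen branching enzyme, read 7.09, 7.73 and 7.76 in MCT4KO animals and the identical value of 7.52 in all 4 WT animals. Such a tie over all WT arrays occurs in 2 of the 19572 named features, so its WT spread of 0 is not a measure of animal variation.

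The lipid and sterol members all had differences above 0, from 0.20 to 0.35, and that of Insig2 was -0.084 without WT 1 and WT 2. Vldlr, a receptor that takes up triglyceride-rich lipoproteins, read 13.13, 13.36 and 13.79 in MCT4KO 1 to 3 and 13.00, 12.83, 13.34 and 13.13 in WT 1 to 4. MCT4KO 3 was the highest of all 7 animals and MCT4KO 1 lay in the middle of the WT range. The difference was 0.35 ± 0.188 (SE; limma adjusted p = 0.47). Hilpda, which coats lipid droplets and inhibits the lipase ATGL, differed by 0.27 ± 0.211 (limma adjusted p = 0.62). Insig2, which holds sterol regulators in the endoplasmic reticulum, differed by 0.20 ± 0.193 (limma adjusted p = 0.70).

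In the 3 enzymes that use oxygen on chromatin and the 2 ubiquitin ligases all differences were below 0 and 0 were called, against 53% of all genes above 0. Each difference was about as large as its SE or smaller, so no direction is read from them. The signs of Kdm3a, Siah2 and Wsb1 turned when certain single animals were left out, and Jmjd6 was -0.0047 without WT 4. Kdm3a and Kdm4b remove methyl groups from histone H3 lysine 9, and Jmjd6 is a nuclear oxygenase of the same Jumonji class. Kdm4b had the smallest p of the 3 and read 7.71, 7.96 and 8.22 in MCT4KO 1 to 3, against 7.83, 8.17, 8.29 and 8.24 in WT 1 to 4. The groups overlapped, and the difference was -0.17 ± 0.169 (SE; limma adjusted p = 0.70). Jmjd6 read 9.58, 9.83 and 10.01 in MCT4KO animals and 9.26, 9.61, 10.56 and 10.85 in WT animals. The MCT4KO animals lay above WT 1 and below WT 3 and WT 4, with MCT4KO 1 level with WT 2, and the difference was -0.26 ± 0.351 (limma adjusted p = 0.79). In Kdm3a all 3 MCT4KO animals lay above WT 1 and WT 2 and below WT 3 and WT 4, and it differed by -0.09 ± 0.238 (limma adjusted p = 0.90). Siah2, a ligase that degrades prolyl hydroxylases and so favours HIF, read 9.95, 9.98 and 11.16 in MCT4KO animals and 9.77, 10.54, 10.83 and 11.01 in WT animals. The difference was -0.18 ± 0.353 (limma adjusted p = 0.87), and MCT4KO 3 alone exceeded the WT range. Wsb1, a substrate adaptor of a cullin ligase, differed by -0.11 ± 0.246 (limma adjusted p = 0.89).

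Of the transcription factors, Bhlhe40 (DEC1), a basic helix-loop-helix repressor tied to the circadian clock, read 15.94, 16.15 and 16.20 in MCT4KO 1 to 3. In WT 1 to 4 it read 15.86, 16.86, 16.25 and 16.89. The MCT4KO animals lay close together between WT 1 and WT 3, and the difference was -0.37 ± 0.246 (SE; limma adjusted p = 0.57). Rora, an orphan nuclear receptor of the clock and of metabolism, had 3 features. The brightest gave 0.39 ± 0.363 (limma adjusted p = 0.69), the next gave -0.09 and the dimmest, near background, 0.02, so the features do not give Rora a direction. Selenbp1, a methanethiol oxidase, had the lowest difference of all members. It read 10.25, 10.87 and 11.81 in MCT4KO 1 to 3 and 11.50, 12.00, 11.40 and 11.41 in WT 1 to 4. MCT4KO 1 and 2 lay below every WT animal and MCT4KO 3 inside the WT range, and the difference was -0.60 ± 0.319 (SE; limma adjusted p = 0.47). It was -0.24 without MCT4KO 1 and -1.02 without MCT4KO 3 (unadjusted p = 0.0025 in limma).

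Most members varied among WT animals by more than the median of all genes, of which 7633 were at background in both groups. The spread over genes above background alone is not given, so a larger spread cannot be called particular to the members. The SD over the 4 WT animals had a median of 0.293 over the members and 0.196 over all genes, and 24 of 31 members exceeded the median of all genes. In MCT4KO animals the median SD was 0.246 over the members and 0.209 over all genes. Among WT animals the lowest and highest member values fell mostly on particular mice. WT 1 was the lowest WT animal for 14 members and WT 2 for 13, with Gbe1 left out for its tie. WT 3 was the highest for 15 and WT 4 for 11. The same counts over all genes are not given, so this order cannot be called particular to the members. The mean over the members was 12.09, 12.02 and 12.40 in MCT4KO 1 to 3 and 11.66, 11.73, 12.16 and 12.17 in WT 1 to 4. WT 3 and WT 4 thus lay between MCT4KO 1 and MCT4KO 3, and MCT4KO 3 was the highest of 7 animals for 16 members.

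**Figure D3:**
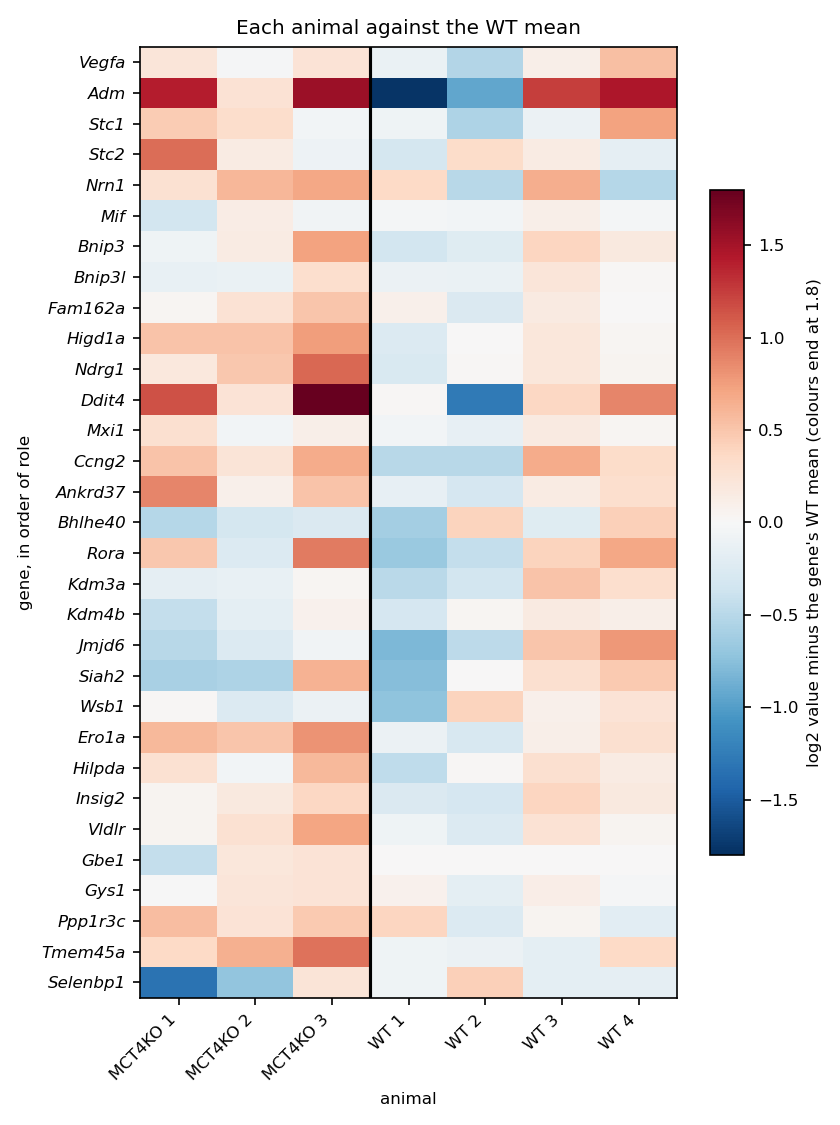
Log2 value of each member in each animal minus the mean of the gene's 4 WT values (red above, blue below, colours ending at 1.8), with MCT4KO animals left of the black line and WT animals right of it. WT 1 and WT 2 are blue for most genes, WT 3 and WT 4 red for most, and MCT4KO 3 lies above the WT mean for 25 of 31 genes.

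Neutrophil and myeloid marrow markers followed the same WT animals. Of 14 measured markers 12 were below 0, 3 read at background in each group, and another 6 did so in the MCT4KO animals but not in WT, S100a8, Ngp and Retnlg among them. Their mean was 5.38, 4.999 and 4.97 in MCT4KO 1 to 3 and 6.91, 8.67, 5.55 and 5.80 in WT 1 to 4, so the animals lowest for the HIF-1 targets, WT 1 and WT 2, were highest for these markers. Of 7 endothelial markers, 6 were at background in both groups. The 3 erythroid markers measured were all below 0, with means of 6.46, 6.34 and 6.23 in MCT4KO 1 to 3 and 6.73, 7.91, 6.47 and 6.45 in WT 1 to 4, so they too were highest in WT 1 and WT 2. Of 8 osteoblast and osteocyte markers, 6 were below 0 and 6 at background in both groups, and their mean was 5.33 to 5.94 in MCT4KO animals and 5.71 to 6.24 in WT animals. Ibsp, the bone sialoprotein, differed by -1.94 ± 0.485 (SE, limma adjusted p = 0.14). Every MCT4KO value of Ibsp lay below every WT value, as in 6.37% of all genes. Col1a1, also above background, went the other way at 0.31 ± 0.257 (limma adjusted p = 0.64), and its groups overlapped. The part of marrow or bone cells in the HIF-1 target differences was not tested.

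Leaving out WT 1 and WT 2, which had the lowest means over the members themselves, lowers the differences by construction and does not bear on the part of other cells. Without them the median over the members was -0.01 in place of 0.27, and 15 of 31 members were above 0 in place of 23, against 52.8% of all genes in the same fit. Higd1a then differed by 0.48 ± 0.172, Ppp1r3c by 0.50 ± 0.180 and Ero1a by 0.43 ± 0.176, each at an unadjusted p under 0.05. Jmjd6 differed by -0.90 ± 0.196 and Kdm3a by -0.50 ± 0.168, also at an unadjusted p under 0.05. Limma's adjusted p of these 5 genes ran from 0.20 to 0.49. In this fit 4.31% of all genes passed that unadjusted threshold above 0 and 5.43% below 0. WT 1 and WT 2 were the lowest WT animals for Jmjd6 (9.26 and 9.61) and Kdm3a (10.44 and 10.60). Leaving them out lowers both differences and narrows the WT spread, so the p-values of these genes here cannot test a difference. Adm turned to -0.27 and Vegfa to -0.17. The median was 0.11 without MCT4KO 3 and 0.17 without WT 1.

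**Figure D4:**
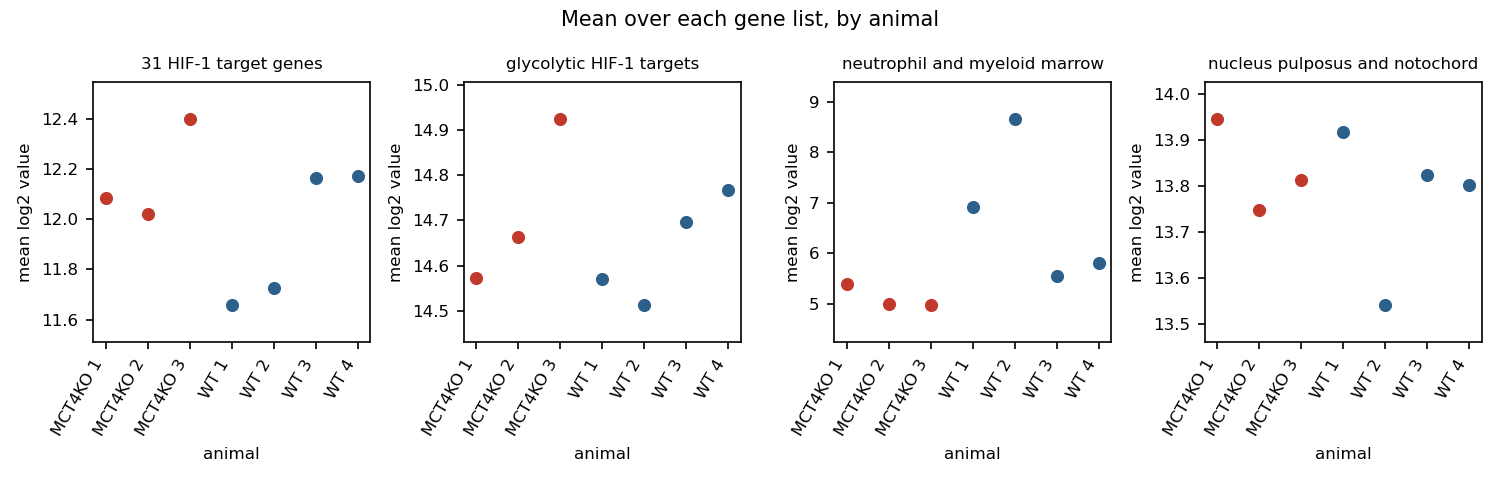
Mean log2 value over the 31 HIF-1 targets, the glycolytic HIF-1 targets, neutrophil and marrow markers, and nucleus pulposus and notochord markers in each animal (red, MCT4KO; blue, WT; each panel has its own scale, and levels are not compared between panels). WT 1 and WT 2 have the lowest means for the 31 genes (11.66 and 11.73) and the highest for marrow markers (6.91 and 8.67). The low means are not particular to the 31 genes. The glycolytic targets also read lowest in WT 1 and WT 2 (14.57 and 14.51), with MCT4KO 1 almost level with WT 1.

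The RNA of HIF subunits and oxygen sensors gave no called difference, and HIF-1 protein and activity were not measured. Of 10 HIF subunits and oxygen sensors, 7 were above 0 and 0 were called by limma, 0 had an unadjusted p under 0.05 in either direction, and the median was 0.10. The subunits of HIF-1 itself, Hif1a and Arnt, differed by 0.13 ± 0.173 (limma adjusted p = 0.79) and 0.10 ± 0.126 (limma adjusted p = 0.78). The 3 with the smallest p were Epas1, Egln1 and Hif1an. Epas1 encodes the HIF-2 alpha subunit and differed by -0.34 ± 0.198 (limma adjusted p = 0.49). Egln1, the main prolyl hydroxylase that senses oxygen, differed by 0.27 ± 0.159 (limma adjusted p = 0.50), and Hif1an, the asparaginyl hydroxylase that blocks HIF transactivation, by -0.24 ± 0.158 (limma adjusted p = 0.56).

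Of 17 measured glycolytic targets of HIF-1, 12 were above 0, 0 were called by limma, and 1 was lower at an unadjusted p under 0.05. Their median was 0.12, and 0.061 without WT 1 and 0.036 without WT 1 and WT 2, where that of the 31 members was -0.01; the lists were not tested against each other. The lower gene was Pfkl, liver-type phosphofructokinase, at -0.81 ± 0.219 (limma adjusted p = 0.17). Every MCT4KO value of Pfkl lay below every WT value, as in 6.37% of all genes. Pkm, pyruvate kinase, was named after its values were seen and differed by 0.12 ± 0.119 (limma adjusted p = 0.70). Every MCT4KO value of Pkm lay above every WT value, as in 5.66% of all genes. Hk2, the inducible hexokinase, differed by 0.68 ± 0.309 (limma adjusted p = 0.41) and Pfkfb3, which makes the activator of phosphofructokinase, by 0.44 ± 0.205 (limma adjusted p = 0.42). Car9, a surface carbonic anhydrase and HIF-1 target, read 12.04, 12.13 and 12.36 in MCT4KO 1 to 3 and 11.40, 11.50, 11.59 and 11.89 in WT 1 to 4. Like Higd1a, Ero1a and 5.66% of all genes, it had every MCT4KO value above every WT value. The difference of Car9 was 0.58 ± 0.157 (SE, limma adjusted p = 0.17). Car12 was at background in both groups.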

How the data were processed

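RNA from 100 ng per animal was labelled and measured on Affymetrix whole-transcript arrays, and the authors deposited 1 log2 value per feature and array, for which the submitters' processing notes name Affymetrix Expression Console 1.4.1. How signals were corrected, normalized and summarised is not stated in the labels. The log2 unit is read from the values, whose maximum of 19.4 exceeds a 16-bit reading, so signals were rescaled before deposit. The deposited values were used without further normalization.

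Of 28846 features, 19572 had 1 gene symbol, all of which matched a gene identifier in a RefSeq table (GRCm38.p6) used for names. The feature with the highest mean was kept per gene. A group was at background where each array read at or below the median of its 5222 negative controls. Differences were estimated over all 19505 genes with limma 3.58.1 under R 4.3.3 (lmFit, eBayes; 3 MCT4KO against 4 WT; 5 residual and 4.66 prior degrees of freedom), with two-sided p-values adjusted by Benjamini-Hochberg over all genes and called under 0.05. On simulated data with 200 of 19505 genes changed, the fit recovered 4.03% of changes of 0.5 log2 units, 60.7% of changes of 1 and 95.3% of changes of 2. False calls made up 4.58%. Recovery was not taken for the members separately. A member that was not called may therefore still differ. The number of animals limits precision, with a median SE of 0.167 over all genes and 0.214 over the members. Every member is described; all array values are given for members with separate groups or an unadjusted p under 0.05 and for the member with the smallest p in each role, and for others picked after their values were seen. Members, lists, roles and tests were chosen with earlier results of these data known. Alternatives were quantile normalization, median centring, a filter on dim genes, averaged features, a trended robust variance prior, a replicate block, each animal left out, and WT 1 and WT 2 left out together.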

Additional observations from a re-analysis of the deposited data

Results flagged for a closer look

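Among the WT animals, 1 of 4 lay apart from the rest by Dixon's test in 2 genes, of 35 values or list means tested, and chance alone flags about 1 group in 20. Mif read 14.87 in WT 3, where the other WT animals read 14.72 to 14.74. Selenbp1 read 12.00 in WT 2, where the other WT animals read 11.40 to 11.50.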

How the results depend on the processing

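No member was called in any of 14 alternatives, and 18 members kept their sign in all of them (14 above 0, 4 below), with Slc16a3 lost in each (-8.75 to -8.48 with single animals left out). With quantile normalization 5 members had every MCT4KO value above every WT value (5.89% of all genes in that fit), and Kdm3a moved to 1.1e-05. Without genes below the control median, 22 members were above 0, against 42.3% of the genes kept, and the acid-handling list kept only Car9, at 0.58. Animal numbers are shared between the genotypes but do not pair the animals: deviations from the group means correlated at -0.127, 0.0157 and 0.0499 for numbers 1, 2 and 3. With the replicate block, in which WT 4 has no partner and adds nothing to the difference, 10 members were higher at an unadjusted p under 0.05 (5.04% of all genes), 6 of all genes were called in place of 115, and Kdm3a was 0.012. Without WT 1 and WT 2, 15 members were above 0, 3 higher ones and 2 lower ones had an unadjusted p under 0.05 (4.31% and 5.43% of all genes), and 5 had every MCT4KO value below every WT value, against 13.8% of all genes with so few animals. The 3 higher ones were Higd1a, Ero1a and Ppp1r3c, so Tmem45a, Ndrg1 and Ankrd37 were not among them. The 2 lower ones were Jmjd6 and Kdm3a, whose lowest WT animals were the ones left out, so no loss is read from their p-values in this fit. There Vegfa was -0.17, Adm -0.27, Stc1 -0.070, Bnip3 -0.0060, Bnip3l -0.10, Ccng2 -0.031, Rora -0.16 and Insig2 -0.084, and the cause was not tested. With single animals left out, 21 to 25 members were above 0 and the median ran from 0.11 (without MCT4KO 3) to 0.33. With an unadjusted p under 0.05, members above 0 numbered 3 (without MCT4KO 3) to 8 and members below 0 numbered 0 to 2 (without WT 1). Members with every MCT4KO value above numbered 2 to 8 (without MCT4KO 1, 9.64% of all genes) and below 0 to 2 (without WT 1, 8.75%); over these fits the shares of all genes were 7.67% to 11.4% above and 8.01% to 12% below. Of the 6 members with an unadjusted p under 0.05, Higd1a, Ero1a and Tmem45a had one in 7 of these 7 fits, Ndrg1 in 5, and Ankrd37 and Ppp1r3c in 2 each. These 7 fits share most of their animals, so they are not independent of each other or of the main fit. Signs also turned in these fits for Vegfa (-0.026 to 0.33), Mif (-0.20 to 0.032), Bnip3l (-0.12 to 0.093), Kdm3a (-0.25 to 0.079), Siah2 (-0.57 to 0.032), Wsb1 (-0.35 to 0.025) and Gbe1 (-0.11 to 0.22). Precision is limited by 7 arrays and by signal at background for Stc1.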
